A study of Homo sapiens with 12 samples.

Results

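The Sprouty and SPRED genes encode intracellular inhibitors of receptor tyrosine kinase signalling. The 6 genes described here are SPRY1, SPRY2, SPRY4, SPRED1, SPRED2 and SPRED3, taken by symbol from the 58735 genes of the deposited count table. All 6 were found, and all 6 passed the filter on low counts that left 16133 genes for testing.

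Messenger RNA was sequenced from KP4 and MiaPaca2, established human cell lines labelled as pancreatic ductal adenocarcinoma. Cells of each line, grown in DMEM with fetal bovine serum, received the solvent DMSO alone or 100 nM trametinib for 48 h, in 3 libraries per line and treatment. Trametinib is an allosteric inhibitor of MEK1 and MEK2, the kinases that activate ERK. Each line is a single model of the tumour, and the labels leave unsaid if the libraries of a group were grown as separate cultures; p-values therefore reflect only the spread among these libraries, which may be technical.

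Sprouty and SPRED proteins belong to the negative feedback loops of the RAS-RAF-MEK-ERK pathway. Growth factor receptors switch on RAS, RAS switches on the RAF kinases, and the kinase relay ends with ERK, which drives transcription of genes that include inhibitors of the relay itself. Sprouty proteins share a cysteine-rich C-terminal domain that places them at membranes, and they act between the receptor and RAF. SPRED proteins carry an N-terminal EVH1 domain as well as a Sprouty-related C-terminal domain, and SPRED1 and SPRED2 bring the RAS GTPase-activating protein neurofibromin (NF1) to the membrane, where it turns RAS off. Because their transcription depends on ERK activity in many cell types, several of these genes are used as readouts of pathway output.

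Library totals ran from 20293688 to 28018129 counts, and mitochondrial transcripts took 2.25% to 5.75% of them. Pairs of libraries of 1 group gave chi-square values per degree of freedom between 2.02 and 2.89 in 3 of the 4 groups and between 7.70 and 14.5 in MiaPaca2 DMSO, where replicate 2 stood farthest from the others. Leaving out that library changed no call on the 6 genes in any of the comparisons below. Of the ductal markers, the keratin KRT8 was present at mean levels of 51.9 CPM (counts divided by depth, scaled by the trimmed mean of M-values method, TMM) in KP4 DMSO and 872 CPM in MiaPaca2 DMSO. EPCAM and CDH1, which define epithelial cells, were near 0 in both (0.353 and 0.472 CPM in KP4 DMSO, 0.196 and 0.141 CPM in MiaPaca2 DMSO), beside 3630 and 6060 CPM of the mesenchymal filament gene VIM. The 3 acinar markers had no counts, and the endocrine markers summed to at most 0.122 CPM in any library. The 4 immune markers summed to 1.39 to 1.54 CPM in KP4 DMSO and 0.562 to 0.747 CPM in KP4 trametinib, and to 2.39 to 4.33 and 3.46 to 5.67 CPM in the MiaPaca2 groups; most of this was PTPRC, and CD3E had no counts. CDH1 was at 4.96 CPM in KP4 trametinib and 2.30 CPM in MiaPaca2 trametinib. The summed level of the 8 ductal markers was 372 to 383 CPM in KP4 DMSO, 237 to 246 CPM in KP4 trametinib, 1840 to 2220 CPM in MiaPaca2 DMSO and 853 to 861 CPM in MiaPaca2 trametinib. The 5 fibroblast markers summed to 72.5 to 123 CPM in MiaPaca2 DMSO and 217 to 229 CPM in MiaPaca2 trametinib, with COL1A2 at 101 and 210 CPM and DCN and LUM near 0. The part of these marker differences in the results was not tested.

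Stretches of sequence near RefSeq starts of the genes whose promoter windows held a searched motif are given first, together with SPRY4, the gene with the largest fall. The printed SPRED3, SPRED2 and SPRY4 stretches all belong to starts that lie inside the annotated gene, not at its outermost start. RefSeq promoter windows of GRCh38.p14, each from 250 bases before to 50 bases after a transcription start, were available as 11 windows for the 6 genes. They were searched on both strands for the octamers TGAATGAA and TGAATGGA, bound by the ERK-regulated repressor CIC, the ETS motif CCGGAAGT, the AP-1 motifs TGACTCA and TGAGTCA, the cAMP response element TGACGTCA and the SRF CArG box; these motifs do not overlap one another as written. Capitals mark a match, and positions count back from −1, the base before the start. The SPRED3 sequences are the part of chr19:38389541-38389611 (plus strand) outside annotated exons, with a CIC octamer whose first base is at −192, and the 30 bases chr19:38389720-38389749 around an AP-1 motif at −60. Of the 250 bases before this SPRED3 start, 126 are annotated exon, and the 30 bases were not chosen to lie outside exons. The SPRED2 sequence is the 30 bases chr2:65366766-65366795 (minus strand) around an AP-1 motif at −6, whose last base is the start itself. The SPRY4 sequence is the part of its window outside annotated exons, chr5:142324418-142324497 (minus strand), and held none of the motifs.
SPRED3 CIC: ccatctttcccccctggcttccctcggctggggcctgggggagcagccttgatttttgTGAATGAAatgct
SPRED3 AP-1: ccgttgctgggTGACTCAgtgagctttgca
SPRED2 AP-1: taaccctcggaTGACTCAtccggtacaatg
SPRY4: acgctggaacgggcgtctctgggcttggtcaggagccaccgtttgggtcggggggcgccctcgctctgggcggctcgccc

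The CIC octamers were in 1 of the 11 windows, against 2.63% of all 35116 windows of the same length, and the AP-1 motifs in 2 of the 11, against 4.95% of all windows. No window of the 6 genes held the ETS motif, the cAMP response element or the CArG box, which 4.14%, 1.85% and 1.29% of all windows held. These matches are a description of the letters in these windows and not of bound sites.

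All 6 genes fell under trametinib in both cell lines, each with no overlap between the DMSO and the trametinib libraries. The fall was smallest for SPRY1 in KP4, to 37.9% of the DMSO level, and largest for SPRY4 in KP4, to 1.03%. In KP4 23.6% of all genes tested were called lower by edgeR's quasi-likelihood test at a Benjamini-Hochberg adjusted p under 0.05, and 2.96% were called lower by at least 1 on the log2 scale, as all 6 genes were. In MiaPaca2 these shares were 29.5% and 4.72%, and all 6 genes were again in both. All trametinib libraries lay below all DMSO libraries for 30.5% of genes in KP4 and 29.8% in MiaPaca2. The median log2 fold change of the 6 genes was −2.69 in KP4 and −2.02 in MiaPaca2, against 0.0 and 0.05 over all genes tested. These levels are relative to the total messenger RNA of a library, in which fewer cells of a type and less RNA per cell cannot be told apart. The plot of levels by library shows each gene in each group.

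**Figure D1:**
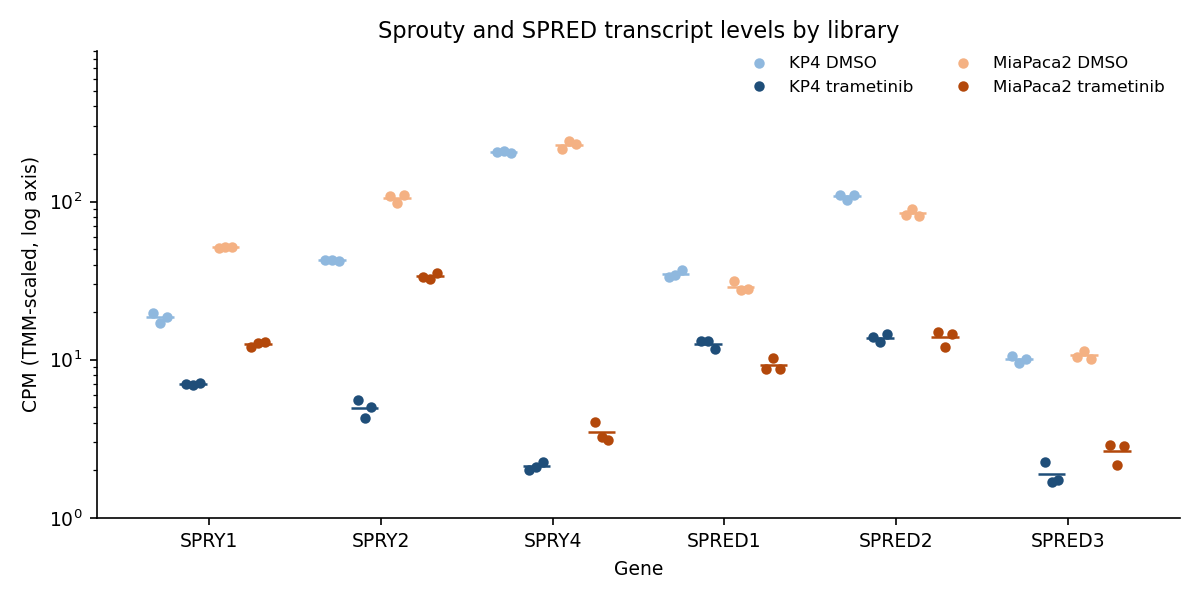
TMM-scaled CPM of the 6 genes on a log axis, with 1 point per library, coloured by group, and a line at each group's mean (n = 3). In both lines the trametinib points of every gene lie below its DMSO points, and SPRY4 has the widest gap, from 206 to 2.12 CPM in KP4 and from 229 to 3.47 CPM in MiaPaca2.

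SPRY4 (ENSG00000187678, chr5:142310427-142326455 in GRCh38, minus strand) encodes a Sprouty that restrains signalling downstream of fibroblast growth factor and other receptors. In KP4 it stood at 206, 209 and 203 CPM in DMSO replicates 1, 2 and 3 and at 2.00, 2.09 and 2.26 CPM in trametinib replicates 1, 2 and 3. In MiaPaca2 it stood at 214, 241 and 231 CPM in DMSO and at 4.06, 3.26 and 3.10 CPM in trametinib. Every trametinib library was thus far below every DMSO library, and the counts behind the trametinib values were 56 to 61 per library in KP4 and 66 to 100 in MiaPaca2. The log2 fold change was −6.60 ± 0.08 (SE) in KP4, a 97.1-fold fall (edgeR adjusted p = 5.4e-28), and −6.03 ± 0.08 in MiaPaca2, a 65.5-fold fall (edgeR adjusted p = 7.46e-28). In each line SPRY4 was number 7 of the 16133 genes tested when they were ordered from the lowest log2 fold change.

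SPRY2 (ENSG00000136158, chr13:80335976-80340951, minus strand) encodes the Sprouty whose phosphorylated tyrosine binds the ubiquitin ligase CBL. In KP4 its level was 42.6, 42.6 and 42.1 CPM in DMSO and 5.55, 4.26 and 5.04 CPM in trametinib. In MiaPaca2 it was 108, 98.7 and 111 CPM in DMSO and 33.1, 32.3 and 35.4 CPM in trametinib. The MiaPaca2 trametinib libraries therefore kept a level close to that of the KP4 DMSO libraries, though below all 3 of them. The fall was −3.10 ± 0.08 on the log2 scale in KP4 (edgeR adjusted p = 2.33e-20), which left 11.7% of the DMSO level. In MiaPaca2 it was −1.66 ± 0.07 (edgeR adjusted p = 2.22e-17), which left 31.7%.

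SPRY1 (ENSG00000164056, chr4:123396795-123403760, plus strand), a Sprouty known for restraining receptor signalling in kidney development, was the Sprouty with the smallest fall in KP4. Its level there was 19.9, 17.0 and 18.7 CPM in DMSO and 7.06, 6.88 and 7.12 CPM in trametinib. In MiaPaca2 it was 50.7, 51.4 and 51.9 CPM in DMSO and 12.1, 12.7 and 12.9 CPM in trametinib. The 2 groups of a line did not overlap, and all 3 MiaPaca2 trametinib libraries were below all 3 KP4 DMSO libraries. The log2 fold change was −1.40 ± 0.09 in KP4 (edgeR adjusted p = 6.01e-13) and −2.03 ± 0.08 in MiaPaca2 (edgeR adjusted p = 1.26e-17).

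SPRED2 (ENSG00000198369, chr2:65310851-65432637, minus strand), which brings NF1 to RAS, had the largest fall of the SPRED genes in both lines. It stood at 110, 102 and 111 CPM in KP4 DMSO, and under trametinib at 13.8, 12.9 and 14.7 CPM. In MiaPaca2 it stood at 82.8, 89.6 and 81.3 CPM in DMSO and at 14.9, 12 and 14.7 CPM in trametinib. The lines differed in DMSO and overlapped in trametinib. The log2 fold change was −2.97 ± 0.07 in KP4 (edgeR adjusted p = 1.84e-21) and −2.60 ± 0.07 in MiaPaca2 (edgeR adjusted p = 1.74e-20).

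SPRED1 (ENSG00000166068, chr15:38252326-38357249, plus strand) is the SPRED whose inherited loss causes Legius syndrome, a condition related to neurofibromatosis. Its level was 33.4, 34.1 and 37.2 CPM in KP4 DMSO and 13.1, 13.1 and 11.7 CPM in KP4 trametinib. In MiaPaca2 it was 31.7, 27.6 and 27.8 CPM in DMSO and 8.69, 10.3 and 8.73 CPM in trametinib. The groups of each line were separate, and the falls were among the smaller ones of the 6 genes. They were −1.46 ± 0.09 on the log2 scale in KP4 (edgeR adjusted p = 2.83e-13) and −1.66 ± 0.09 in MiaPaca2 (edgeR adjusted p = 3.58e-14).

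SPRED3 (ENSG00000188766, chr19:38388421-38399587, plus strand), the least studied SPRED, was the lowest of the 6 genes per kilobase of exon in DMSO in both lines. It stood at 10.6, 9.48 and 10.1 CPM in KP4 DMSO, and under trametinib at 2.25, 1.68 and 1.74 CPM. In MiaPaca2 it stood at 10.5, 11.4 and 10.1 CPM in DMSO and at 2.88, 2.17 and 2.86 CPM in trametinib. The trametinib values rest on 45 to 64 counts per library in KP4 and 44 to 71 in MiaPaca2, and its SE was the widest of the 6. The log2 fold change was −2.40 ± 0.15 in KP4 (edgeR adjusted p = 1.2e-12) and −2.00 ± 0.15 in MiaPaca2 (edgeR adjusted p = 1.09e-11).

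**Figure D2:**
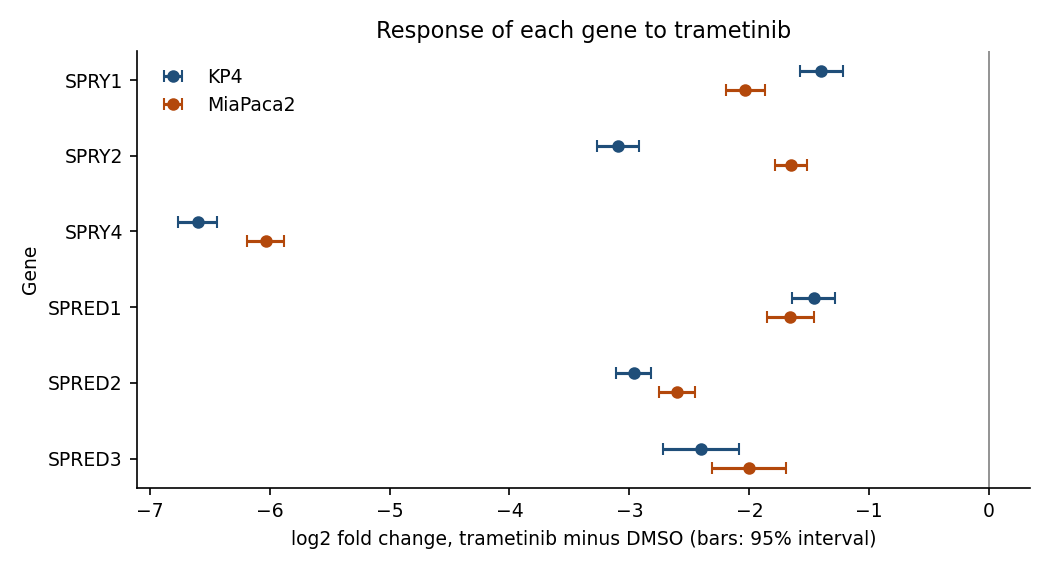
Log2 fold change of each gene, trametinib minus DMSO, in KP4 (blue) and MiaPaca2 (orange), with 95% intervals from the edgeR fit. SPRY4 lies near −6.60 and −6.03, apart from the other genes, and the intervals of the 2 lines are farthest apart for SPRY2, at −3.10 and −1.66.

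The responses of the 2 lines were compared by the interaction of line and treatment in the same fit, in which 36.1% of all genes tested were called. Of the 6 genes, 4 were called. SPRY2 fell more in KP4, with a log2 difference (KP4 minus MiaPaca2) of −1.44 ± 0.11 (edgeR adjusted p = 9.65e-11, 95% interval −1.66 to −1.22). SPRY1 fell more in MiaPaca2, with a difference of 0.63 ± 0.12 (edgeR adjusted p = 0.000118, interval 0.39 to 0.88). These 2 genes therefore differed between the lines in opposite directions. SPRY4 fell more in KP4, with a difference of −0.57 ± 0.14 (edgeR adjusted p = 0.00289), a call that limma-voom did not make (difference −0.56, adjusted p = 0.0569). SPRED2 fell more in KP4, with a difference of −0.36 ± 0.10 (edgeR adjusted p = 0.00781), a call lost without KP4 trametinib replicate 1 (difference −0.30, adjusted p = 0.0503). SPRED1 and SPRED3 were not called: their differences were 0.19 (interval −0.07 to 0.46, edgeR adjusted p = 0.255) and −0.40 (interval −0.86 to 0.05, edgeR adjusted p = 0.164).

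**Figure D3:**
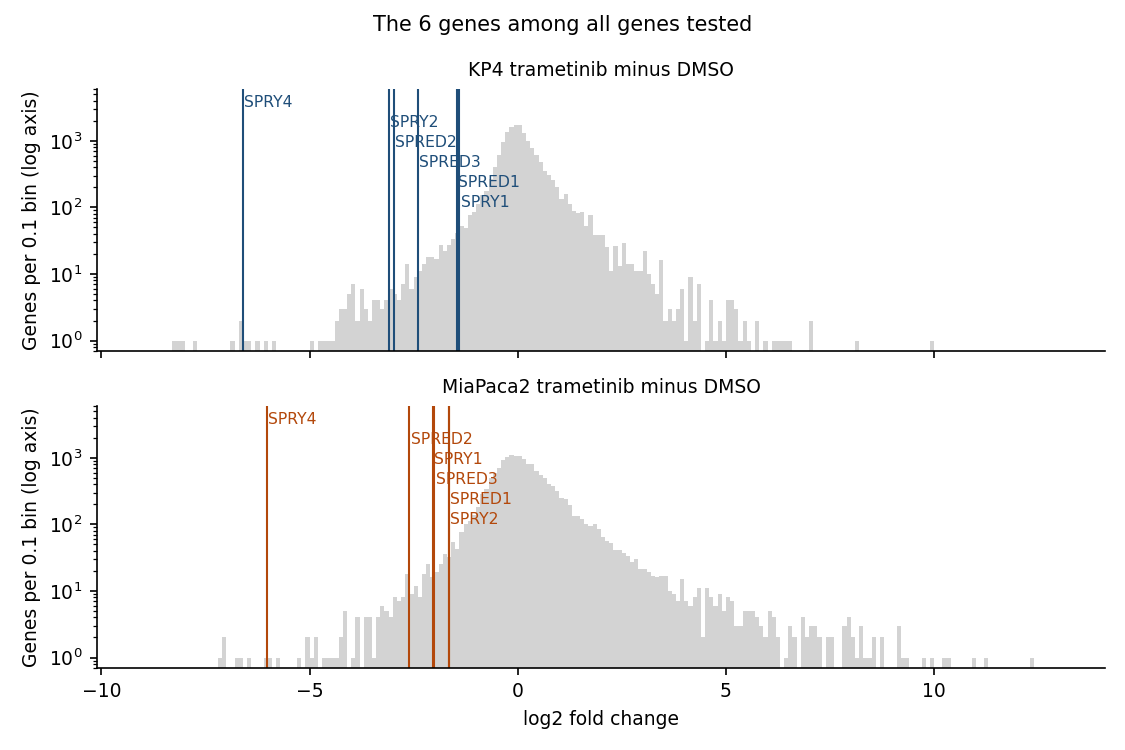
Number of genes per bin of 0.1 in log2 fold change (log axis) among the 16133 genes tested, in KP4 (upper panel) and MiaPaca2 (lower panel), with a vertical line at each of the 6 genes. The 6 lines lie left of the bulk in both panels, between −6.60 and −1.40 in KP4 and between −6.03 and −1.66 in MiaPaca2.

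Without the drug, the lines differed most in SPRY1 and SPRY2, the levels of which were lower in KP4 DMSO than in MiaPaca2 DMSO. The log2 differences were −1.47 ± 0.07 for SPRY1 (edgeR adjusted p = 4.82e-15) and −1.32 ± 0.06 for SPRY2 (edgeR adjusted p = 1.8e-15), and their libraries did not overlap. SPRY4 was lower in KP4, at −0.15 (edgeR adjusted p = 0.0092), and SPRED2 was higher by 0.35 (edgeR adjusted p = 2.14e-05). SPRED1 was higher in KP4 by 0.27 (edgeR adjusted p = 0.0064), a call lost without KP4 DMSO replicate 3 (difference 0.22, adjusted p = 0.0505). SPRED3 was not called, at −0.08 with an interval of −0.34 to 0.18 (edgeR adjusted p = 0.59), and its libraries overlapped. The count of 5 of 6 called stands beside 63% of all genes tested in this comparison.

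Under trametinib, the gap in SPRY2 was wider than in DMSO: KP4 trametinib stood 6.78-fold below MiaPaca2 trametinib, a log2 difference of −2.76 ± 0.09 (edgeR adjusted p = 2.58e-19). SPRY1 was lower in KP4, at −0.84 (edgeR adjusted p = 1.7e-08), and so was SPRY4, at −0.72 (edgeR adjusted p = 6.84e-05), while SPRED1 was higher by 0.46 (edgeR adjusted p = 0.000305). SPRED2 stood at 13.8 ± 0.88 CPM in KP4 and 13.8 ± 1.60 CPM in MiaPaca2 (SD, n = 3), a difference of −0.01 with an interval of −0.18 to 0.16 (edgeR adjusted p = 0.923). SPRED3 was lower in KP4, at −0.49 (edgeR adjusted p = 0.0255) although its libraries overlapped, and the call was lost without KP4 trametinib replicate 2 or 3 (−0.41 and −0.43) or MiaPaca2 trametinib replicate 1 or 3 (−0.42 and −0.43). The 5 calls among the 6 genes stand beside 55.2% of all genes tested.

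Levels were compared between genes after division by the length of their merged exons, as CPM per kilobase. In KP4 DMSO the order was SPRY4 (31.4), SPRED2 (20.9), SPRY2 (14.0), SPRY1 (4.68), SPRED1 (4.23) and SPRED3 (1.72), and only SPRY1 and SPRED1 overlapped among neighbours. In MiaPaca2 DMSO SPRY2 (34.9) and SPRY4 (34.8) overlapped at the top, above SPRED2 (16.4), SPRY1 (12.96), SPRED1 (3.52) and SPRED3 (1.82). SPRY4 was thus first or level with the first in both lines without the drug. Under trametinib it was level with SPRED3 at the bottom, at 0.323 beside 0.322 CPM per kilobase in KP4 and 0.529 beside 0.450 in MiaPaca2. The top place was held by SPRED2 in KP4 trametinib (2.68, then SPRY1 at 1.77, SPRY2 at 1.63 and SPRED1 at 1.53, which overlapped) and by SPRY2 in MiaPaca2 trametinib (11.1, then SPRY1 at 3.17, SPRED2 at 2.69 and SPRED1 at 1.12, with no overlap between neighbours).

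The summed level of the 6 genes was 76.9 ± 0.97 CPM per kilobase in KP4 DMSO and 8.26 ± 0.38 in KP4 trametinib (SD, n = 3). In MiaPaca2 it was 104 ± 1.53 in DMSO and 19.01 ± 0.75 in trametinib. The make-up of the sum changed with the drug in a different way in each line. In KP4 SPRY4 held 40.8% ± 1.11 of the sum in DMSO and 3.92% ± 0.31 in trametinib, and in MiaPaca2 33.4% ± 1.66 and 2.79% ± 0.44. SPRY2 held 33.4% ± 2.10 in MiaPaca2 DMSO and 58.2% ± 0.78 in MiaPaca2 trametinib, beside 18.2% ± 0.28 and 19.7% ± 1.71 in KP4. In KP4 trametinib the sum was instead spread over SPRED2 (32.4%), SPRY1 (21.5%), SPRY2 and SPRED1 (18.6%). Within libraries the log2 ratio of SPRY4 to SPRY2 per kilobase went from 1.17 ± 0.02 to −2.33 ± 0.23 in KP4 and from 0.00 ± 0.16 to −4.40 ± 0.24 in MiaPaca2. The ratio of SPRED1 to SPRED2 went from −2.31 ± 0.08 to −0.81 ± 0.18 in KP4 and from −2.22 ± 0.16 to −1.26 ± 0.31 in MiaPaca2, so SPRED1 gained on SPRED2 in both.

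**Figure D4:**
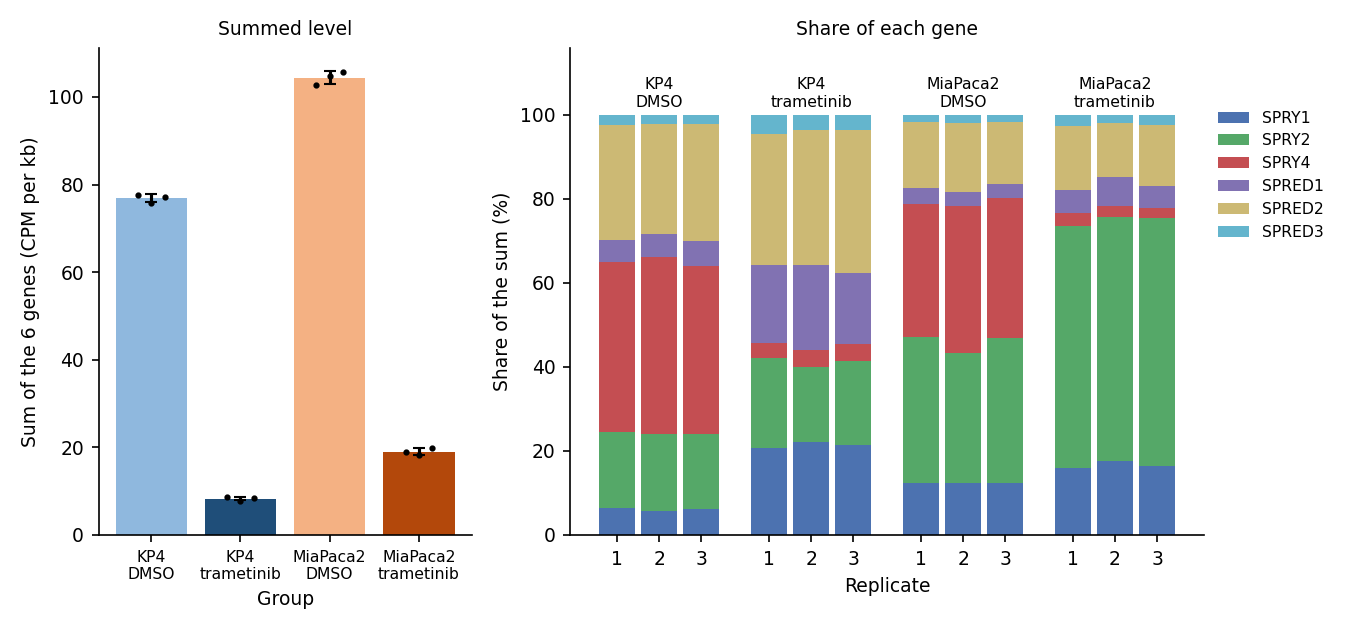
Left, the summed level of the 6 genes in CPM per kilobase (bars, mean; error bars, SD; points, the 3 libraries), which went from 76.9 to 8.26 in KP4 and from 104 to 19.01 in MiaPaca2. Right, the share of each gene in that sum for every library, in which the SPRY4 band narrows under trametinib and the SPRY2 band takes 58.2% of the sum in MiaPaca2 trametinib.

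Genes whose pattern over the 12 libraries was most like that of each gene were taken by the root mean square difference of log2 CPM, each gene centred on its own mean. SPRY4 was followed most closely by ETV5 (0.38) and ETV4 (0.70), ETS-family transcription factors of the ERK programme, and then by the collagen gene COL13A1 (0.90). SPRED1 had the closest companions, with PXN (0.13), the focal adhesion protein paxillin, LTBP2 (0.16) and PMEPA1 (0.20). For SPRED3 they were OTUB2 (0.20), the receptor kinase EPHA2 (0.25) and the lysolipid transporter MFSD2A (0.27). For SPRY1 they were NT5E (0.29), the ectonucleotidase CD73, SMAGP (0.31) and KIF26A (0.31). For SPRED2 they were the protease inhibitor TIMP1 (0.32) and the transcription factors CREB5 (0.34) and EGR3 (0.39). For SPRY2, whose closest gene was farther away than that of any of the other 5, they were the potassium channel KCNN4 (0.42), the noncoding LINC01910 (0.44) and the chemokine CXCL8 (0.46). The log2 fold changes in KP4 and MiaPaca2 were −2.55 and −2.30 for KCNN4, −3.89 and −2.35 for LINC01910, and −3.67 and −0.63 for CXCL8.

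Transcripts of the proteins with which Sprouty and SPRED proteins work were called in both directions. Of 27 partners and modifiers tested, edgeR called 8 higher and 10 lower in KP4, and 8 higher and 8 lower in MiaPaca2, with medians of −0.06 and 0.00. Of all 16133 genes tested, 3805 were called higher and 3812 (23.6%) lower in KP4, and 5500 and 4755 (29.5%) in MiaPaca2. The counts of this list and of the lists below stand beside these. The docking adaptor GAB1 rose by 0.93 in KP4 and 1.18 in MiaPaca2 (edgeR adjusted p = 4.76e-07 and 3.23e-08). MKNK1, a kinase that phosphorylates SPRY2, rose by 0.53 and 0.77 (edgeR adjusted p = 5.12e-06 and 4.2e-09), and CAV1, the caveolin that binds Sprouty proteins, by 0.41 and 1.15 (edgeR adjusted p = 0.000394 and 1.24e-08). The adaptor SHC1 was lower, at −0.87 and −0.80 (edgeR adjusted p = 1.11e-16 and 1.91e-16), and PTPN11, the phosphatase SHP2, at −0.44 and −0.79 (edgeR adjusted p = 5.07e-10 and 2.16e-15). NEDD4, a ubiquitin ligase of SPRY2, was lower, at −0.67 in KP4 (edgeR adjusted p = 9.57e-09); its −0.19 in MiaPaca2 (edgeR adjusted p = 0.0162) lost its call without MiaPaca2 DMSO replicate 2 (−0.08) or MiaPaca2 trametinib replicate 2 (−0.17). None of the 27 fell by 1 or more on the log2 scale in either line, unlike all 6 Sprouty and SPRED genes. Of all genes tested, 2.96% in KP4 and 4.72% in MiaPaca2 were called lower by that much.

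Of 18 other feedback inhibitors, edgeR called 4 higher and 11 lower in KP4 and 5 higher and 10 lower in MiaPaca2, with medians of −0.32 and −0.51. The ERK phosphatase DUSP6 was lower, with log2 fold changes of −6.63 in KP4 and −5.77 in MiaPaca2 (edgeR adjusted p = 4.16e-08 and 1.07e-06), about as far as SPRY4. The phosphatase DUSP4 was lower, at −4.39 and −4.13 (edgeR adjusted p = 4.2e-09 and 1.91e-08), DUSP7 at −1.10 and −1.80, and the EGFR inhibitor ERRFI1 at −1.85 and −1.44. DUSP5 was lower, at −2.30 in KP4 and −0.45 in MiaPaca2, and the adaptor SH2B3 at −1.87 and −0.62. Both differed between the lines in the direction that SPRY2 did (edgeR adjusted p of the difference 2.64e-09 and 3.68e-10). DUSP7, SOCS6 and PTPN12 differed in the other direction (edgeR adjusted p of the difference 8.81e-07, 8.01e-08 and 0.00174). Of the 18 genes, the response difference was called higher for 7 and lower for 7, beside 36.1% of all genes tested called in either direction. The tyrosine phosphatase PTPN12 was lower, at −1.15 and −1.43. SOCS6 was lower, at −1.15 in MiaPaca2, and its −0.21 in KP4 (edgeR adjusted p = 0.0236) was not called without KP4 DMSO replicate 2 (−0.18) or KP4 trametinib replicate 1 (−0.11). Some inhibitors went up: the ubiquitin ligase CBLB rose by 1.21 and 1.85 (edgeR adjusted p = 8.77e-11 and 6.78e-14), LRIG1 rose by 0.76 in KP4 (0.09 in MiaPaca2, edgeR adjusted p = 0.564), and SOCS3 rose by 0.98 in MiaPaca2 and was lower, at −0.43 in KP4.

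The ERK output list holds no Sprouty or SPRED gene, and it includes DUSP4 and DUSP6 again. It was called lower for 7 of 8 genes in both lines, with medians of −3.16 and −2.98. ETV4 was lower, at −6.84 and −6.72 and ETV5 at −6.01 and −5.94 (edgeR adjusted p between 4.5e-24 and 1.65e-21). The exception was the receptor EPHA4, at −0.02 in KP4 (edgeR adjusted p = 0.921) and higher by 1.11 in MiaPaca2 (edgeR adjusted p = 2.2e-10). Of 16 transcription regulators tested, which include ETV4 and ETV5 again, 5 were called higher and 8 lower in KP4, and 6 higher and 10 lower in MiaPaca2. Their median was −0.20 in MiaPaca2 and, without WT1, which had no counts in KP4, −0.34 in KP4. FOXO1 rose by 1.78 and 1.22 and FOXO3 by 0.67 and 0.77, and ETS1 rose by 0.38 in KP4 and 1.30 in MiaPaca2. CIC, the repressor whose octamer was found before an internal start of SPRED3, was higher by 0.61 and 0.99 (edgeR adjusted p = 6.39e-11 and 1.88e-15). The AP-1 subunit FOSL1 was lower, at −1.36 and −1.41 (edgeR adjusted p = 5.96e-14 and 1.42e-14). CIC and FOSL1 were named for the motifs found, after their values were seen. Any part of either in the responses of the 6 genes was not tested.

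Of 15 receptor tyrosine kinases, 13 were tested. edgeR called 5 higher and 3 lower in KP4 and 6 higher and 3 lower in MiaPaca2, with medians of 0.24 and 0.44. ERBB4 rose by 2.42 ± 0.43 and 2.29 ± 0.36 and PDGFRB by 2.26 ± 0.295 and 3.52 ± 0.36 (edgeR adjusted p between 3.76e-09 and 4.15e-05). These SEs were wide beside those of FGFR4 (0.119 in KP4 and 0.112 in MiaPaca2), so the size of both rises is imprecise. MET was lower, at −0.90 in KP4 and KIT at −2.12 (edgeR adjusted p = 0.000655 and 0.00526). In MiaPaca2 FGFR4 was lower, at −0.63 and ERBB3 at −0.99 (edgeR adjusted p = 2.59e-05 and 0.00033). KIT had 5 counts over MiaPaca2 DMSO and 0 over MiaPaca2 trametinib, and the list's MiaPaca2 median was 0.44 also with KIT at the bound that 3 counts over the group allow.

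**Figure D5:**
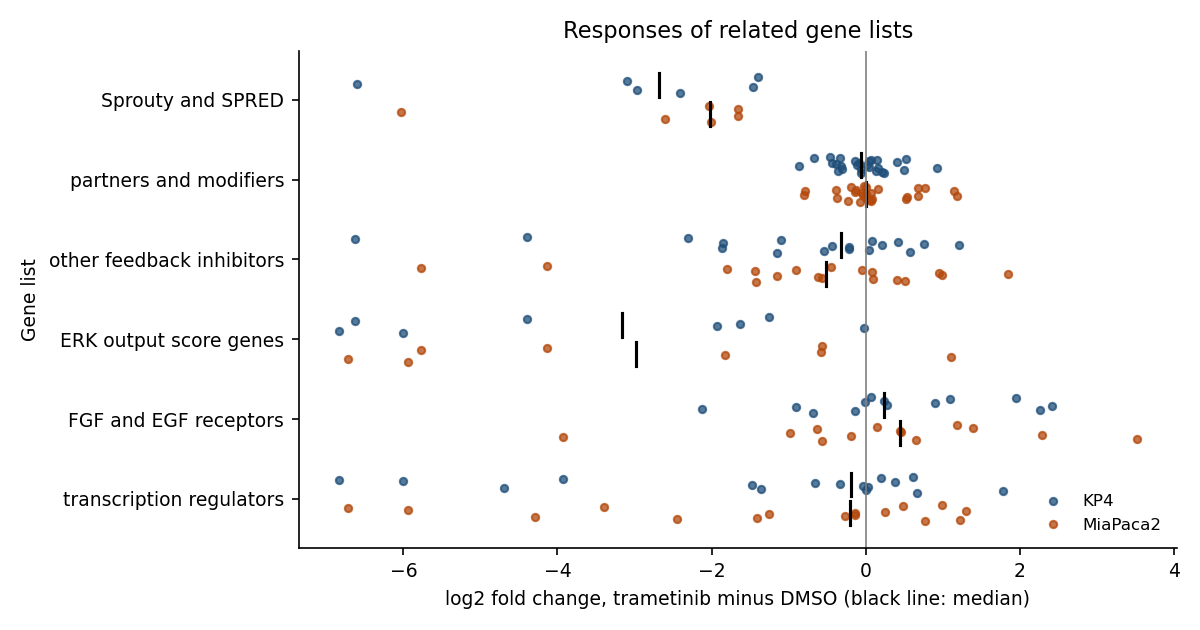
Log2 fold change, trametinib minus DMSO, of each gene of the Sprouty and SPRED set and of the 5 related lists in KP4 (blue) and MiaPaca2 (orange), with a black line at each median. The Sprouty and SPRED medians (−2.69 and −2.02) and the ERK output medians (−3.16 and −2.98) lie well below 0, and those of the partners and modifiers (−0.06 and 0.00) lie at it. WT1, which had no counts in KP4, is drawn at 0.0 there and is part of the KP4 line of the transcription regulators (−0.19, and −0.34 without WT1). KIT in MiaPaca2 is drawn at −3.93, from 5 counts in DMSO and 0 in trametinib.

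SPRY4-AS1 (ENSG00000231185, chr5:142325293-142672001, plus strand) is an antisense transcript that overlaps the SPRY4 gene on the other strand without sharing annotated exon bases; it was looked at after its values were seen. It had 32, 42 and 48 counts in KP4 DMSO and none in the 3 KP4 trametinib libraries. With 3 counts over the group as the floor (0.0365 CPM), this is at least 42.3-fold lower (edgeR adjusted p = 1.02e-08). In MiaPaca2 it had 48, 47 and 35 counts in DMSO and 5, 1 and 1 in trametinib, an 18.3-fold fall by counts per depth (log2 fold change −4.13 ± 0.49, edgeR adjusted p = 9.86e-08). The transcript thus fell with SPRY4 in both lines. Whether the counting used strand is not given in the sources used here, so reads of the antisense transcript and of unspliced or unannotated SPRY4 RNA cannot be told apart.

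Of the nearest tested genes on either side of the 6, 12 in all, edgeR called 2 higher and 6 lower (2 of them by at least 1 on the log2 scale) in KP4 and 1 higher and 7 lower (1 by at least 1) in MiaPaca2, with medians of −0.22 and −0.29. Of all 16133 genes tested, 23.6% were called lower in KP4 and 29.5% in MiaPaca2, and 2.96% and 4.72% by at least 1. Called higher were 3805 and 5500 genes. The distances of the 12 ran from 339 bp to 1348960 bp. The largest fall was that of GGN, which lies on the opposite strand 339 bp from SPRED3, with the 2 genes running away from each other, and which was named after its values were seen. It was lower, at −2.17 in KP4 (edgeR adjusted p = 8.98e-06) and at −1.12 in MiaPaca2 (edgeR adjusted p = 0.00708), the latter not called without MiaPaca2 trametinib replicate 3 (−0.76, adjusted p = 0.0594). GGN levels were low, at 2.59 and 0.569 CPM in KP4 (DMSO, trametinib) and 1.78 and 0.823 CPM in MiaPaca2. FGF1, a ligand of the fibroblast growth factor receptors and the neighbour of SPRY4 at 265723 bp, was likewise named after its values were seen: it was lower, at −1.05 in KP4 (edgeR adjusted p = 0.0027) and stood at −0.43 in MiaPaca2 (edgeR adjusted p = 0.22). Its levels were also low, at 2.54 and 1.23 CPM in KP4 (DMSO, trametinib) and 1.63 and 1.21 CPM in MiaPaca2.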

How the data were processed

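The deposited values are raw, whole-number counts of reads per gene in 1 table for 12 poly(A) RNA libraries, which the authors did not normalize. STAR, DESeq2 and GRCh38 (hg38) were used, per the submitters' processing notes; the sources used here give no versions, counting program, annotation, strand use or treatment of multi-mapped reads. GENCODE 29 held all 58735 identifiers and supplied symbols, positions and exon lengths, and 0 lines named no gene. Samples were grouped by their labels. Genes were filtered with filterByExpr (16133 left), scaled by TMM and tested with edgeR 4.0.16 (R 4.3.3), quasi-likelihood with robust shrinkage, 1 mean per group over all 12 libraries, Benjamini-Hochberg adjustment over all genes tested and a threshold of 0.05. SEs are derived from the F statistic. Likeness used log2 CPM with a prior count of 2. Alternatives were other scalings, filters and tools (limma 3.58.1, DESeq2 1.42.0), fewer libraries and leaving out each library. The fit was tested on data simulated from KP4 DMSO means with the same dispersion for every gene and library, for the KP4 response only. It does not cover the wider spread of MiaPaca2 DMSO or the other comparisons. The 6 genes and the gene lists were chosen with earlier results of these data known. Of each list the text names the 2 largest rises and falls per line past the test; of the partners and of the other feedback inhibitors, also each gene past the test in both lines with a log2 change of at least 1 in either; and the 3 genes most like each of the 6. At depths of 20293688 to 28018129 counts per library the precision of low genes is limited by counting; floors cover counting error only. Comparison of proteins was not run.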

Additional observations from a re-analysis of the deposited data

Results flagged for a closer look

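The response to trametinib differed between the lines, by the interaction of line and treatment in edgeR's quasi-likelihood test with adjustment over all genes tested, for 4 of the 6 genes. As KP4 minus MiaPaca2 the log2 difference was −1.44 for SPRY2 (adjusted p = 9.65e-11), 0.63 for SPRY1 (adjusted p = 0.000118), −0.57 for SPRY4 (adjusted p = 0.00289) and −0.36 for SPRED2 (adjusted p = 0.00781). SPRY2, SPRY4 and SPRED2 fell more in KP4 and SPRY1 fell more in MiaPaca2, in a comparison in which 36.1% of all genes tested were called. Without MiaPaca2 DMSO replicate 2, the library farthest from its group, the differences were −1.39, 0.63, −0.61 and −0.40. The SPRY4 call was not made by limma-voom (adjusted p = 0.0569), and the SPRED2 call was lost without KP4 trametinib replicate 1 (adjusted p = 0.0503).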

How the results depend on the processing

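Over 9 alternatives and the leaving out of each of 12 libraries, 620 of 630 recomputed log2 fold changes of the 6 genes kept their direction and their side of the threshold, among them every response within a line. The other 10 lost the call. For the response difference, the fit with only the libraries compared took in all 12 libraries, so it repeated the main fit and could not change. Some libraries left out belonged to no group of the comparison at hand. The SPRY4 response difference was −0.56 with limma-voom (adjusted p = 0.0569). The SPRED2 response difference ran from −0.45 to −0.30 when 1 library was left out, and the SPRED1 difference between the DMSO groups from 0.22 to 0.33. The SPRED3 difference between the trametinib groups was −0.47 with no filter (adjusted p = 0.0578), −0.49 with limma-voom (0.0631), −0.48 with only the libraries compared (0.0676), and −0.60 to −0.41 when 1 library was left out. The cause was not tested. The replicate numbers did not pair the samples (correlations of same-numbered deviations −0.02 to 0.02); with the replicate block the calls in KP4 were 3686 higher and 3683 lower in place of 3805 and 3812, those in MiaPaca2 5426 and 4674 in place of 5500 and 4755, and no call on the 6 genes changed. With the longest transcript in place of merged exons the summed level was 94.2 and 10.3 CPM per kilobase in KP4 (DMSO, trametinib) and 128 and 23.0 in MiaPaca2, and SPRY4 stood before SPRY2 in MiaPaca2 DMSO; with library size scaling alone it was 103 in MiaPaca2 DMSO. Of the lists, the receptors called higher in KP4 went from 5 to 3 under the stricter filter, an alternative chosen after seeing the data; FGF1 and KIT in MiaPaca2 passed the test without MiaPaca2 DMSO replicates 1 and 3. With a prior count of 0.5, 2 of the 3 genes most like SPRY2, SPRY4 and SPRED2 remained. Another scaling moved the median of all genes to at most 0.08. Of the 6 genes depth limits SPRED3 most, and of other named genes it limits, among others, SPRY4-AS1, KIT, GGN and FGF1. ERBB4 and PDGFRB also had wide SEs.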
